A study of Mus musculus with 8 samples.

Results

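The 34 genes described here encode the enzymes, carriers and regulators that take up glucose, break it down to pyruvate and lactate, pass pyruvate to the mitochondria, and store or release glycogen. They were chosen by name, as the rows of the deposited expression table whose symbol is that of a listed gene and that hold values, and they are 34 of the 18835 genes with values. The samples were hearts of 8 male mice of the BALB/cAJcl strain at 10 weeks of age. All had been immunized with cardiac myosin, which sets off an autoimmune inflammation of heart muscle (myocarditis). In the VEGF-C group, 4 mice were injected intraperitoneally with VEGF-C C156S, a variant of a growth factor of lymphatic vessels that signals by way of VEGFR-3, at 1 µg per day from day 7 to day 10. In the PBS group, 4 mice received PBS on the same schedule. Hearts were taken in week 3. No group without immunization was analysed here, so every difference below is one between immunized animals. The series title speaks of lymphatic endothelial cells, whereas the tissue named for each sample is heart.

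Glycolysis splits glucose into pyruvate in the cytosol, and the heart can turn pyruvate into lactate, take lactate up from the blood, or oxidize pyruvate in the mitochondria through the pyruvate dehydrogenase complex. The adult heart draws most of its energy from fatty acids, and glucose, lactate and its own glycogen store are further fuels. Phosphofructokinase is the main control point of the pathway and is switched on by fructose 2,6-bisphosphate, which the PFKFB enzymes both make and break down.

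Values are normalized reads, that is, reads divided by 1 scaling factor per library, and are listed in the order of replicates 1 to 4 of each group. Log2 fold changes are VEGF-C over PBS, on the scale of log2(normalized reads + 4), with the standard error (SE) of a limma model. A gene is called higher or lower at a two-sided adjusted p under 0.05, by Benjamini-Hochberg over all 18835 genes. The libraries held 53.7 to 65.2 M reads in the VEGF-C group and 61.7 to 76.8 M in the PBS group. Reads from mitochondrial genes made up 9.53 to 11.8% of a VEGF-C library and 6.7 to 10.2% of a PBS library. Nothing in the labels ties a numbered column to an animal, and each column was counted as 1 heart.

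Where genes of glucose and glycogen use passed the test, nearly all were higher in VEGF-C hearts, by modest amounts. Of the 34 genes, 16 were called higher, against a background of 7.05% of all genes, and 2 were called lower, against a background of 8.61%. The 16 were spread over upper and lower glycolysis, lactate handling, pyruvate dehydrogenase and glycogen, whereas the 2 called lower were the PFKFB genes Pfkfb1 and Pfkfb4. The log2 fold change was positive in 29 of the 34 genes, against 50.2% of all genes, and its median over the 34 was 0.37, against 0.00 over all genes. In 19 genes all VEGF-C libraries lay above all PBS libraries, which held for 11.5% of all genes, and in 3 they lay below, which held for 11.6%. The remaining 12 genes overlapped between the groups. The authors' deposited table called 19 of the 34 higher, against 10.2% of all genes with an adjusted p there, and 3 lower, against 11.4%. It called all 18 genes called by limma, with the same sign, and also Hk2, Pkm and Pdha1 as higher and Pfkfb3 as lower.

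**Figure D1:**
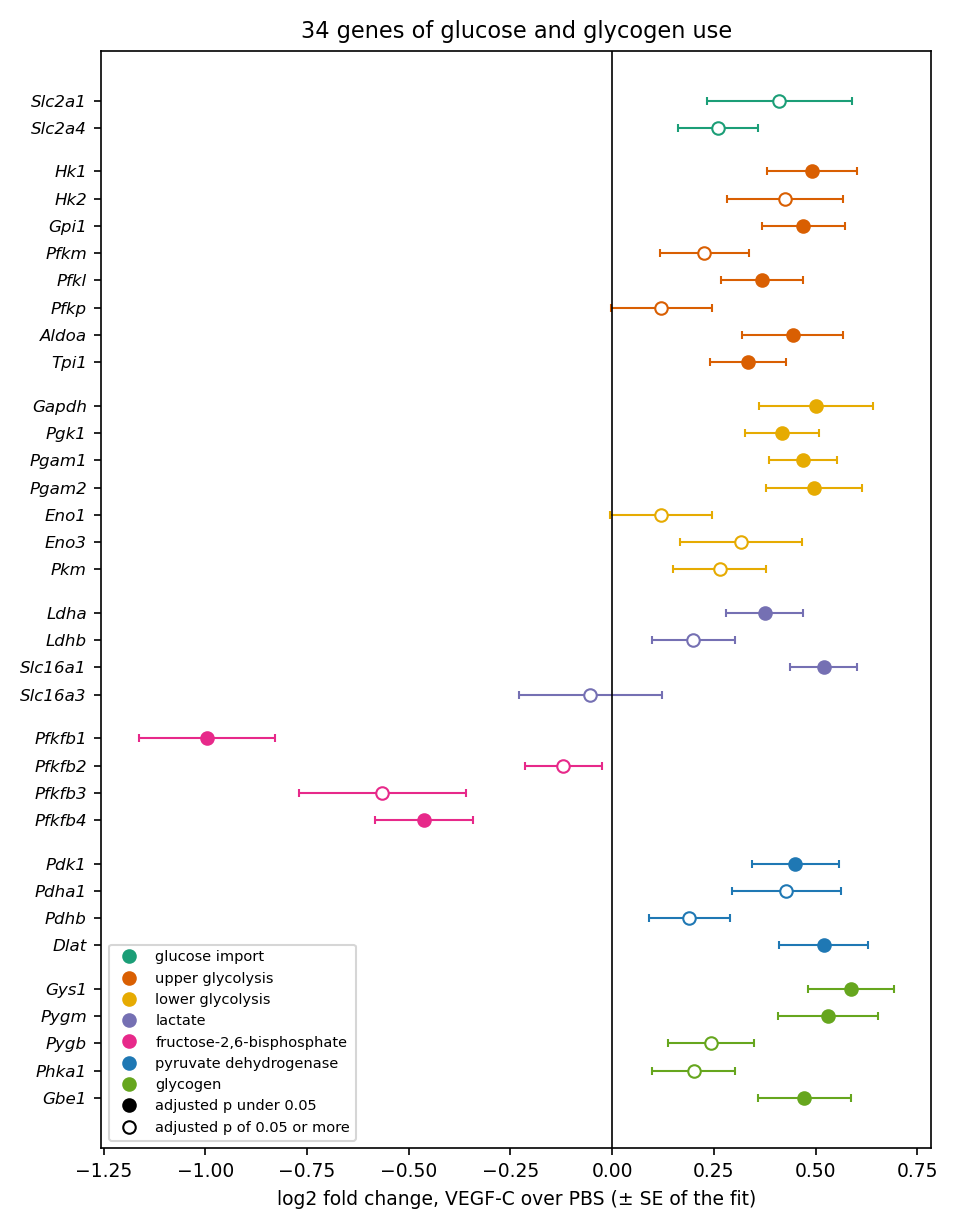
Log2 fold change of each of the 34 genes, VEGF-C over PBS, with bars of 1 standard error of the limma model and filled points for genes called at an adjusted p under 0.05, grouped by role. The 16 genes called higher lie at 0.33 to 0.59, and Pfkfb1 stands apart, the lowest of all, at -0.996.

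Whole heart tissue mixes cell types, and in such libraries fewer cells of a type and less RNA per cell cannot be told apart. The defining markers of cardiomyocytes were abundant in all libraries. Their summed normalized reads ran from 3649394 to 4187764 in VEGF-C hearts and from 2773642 to 3681696 in PBS hearts, and 2 of 10 markers were called higher, Actn2 at 0.61 ± 0.12 (limma adjusted p = 0.0101) and Casq2 at 0.47 ± 0.13 (limma adjusted p = 0.0400). Of the 10, 9 had a positive log2 fold change, and the median was 0.34, beside 0.37 for the 34 genes. At an unadjusted p under 0.05, 4 were higher and 0 lower. The authors' deposited table called 5 cardiomyocyte markers higher and 0 lower. Fibroblast markers summed to 812068 to 1009407 in VEGF-C hearts and 586315 to 839465 in PBS hearts, with 1 of 6 called higher, Col1a1 at 0.69 ± 0.14 (limma adjusted p = 0.00926). The median log2 fold change of the 6 was 0.07, with 4 positive and 2 negative. At an unadjusted p under 0.05, 1 fibroblast marker was higher and 1 lower. B cell markers summed to 693 to 1707 in VEGF-C hearts and 2511 to 4213 in PBS hearts, with 4 of 5 called lower. Of neutrophil markers, 2 of 5 were called lower, and their sums of 10257 to 31730 in VEGF-C hearts overlapped with 15774 to 41542 in PBS hearts. None of 7 macrophage markers was called by limma or in the authors' deposited table, while 2 were lower at an unadjusted p under 0.05, and their sums were 55959 to 69191 in VEGF-C hearts and 60664 to 70745 in PBS hearts. Erythroid markers summed to 121838 to 483354 in VEGF-C hearts and 65618 to 190218 in PBS hearts. Of the 77 listed markers, 75 had values, and none of these was at 0 in every library. Myh1 and Myh4 of skeletal muscle had no values and could not be looked at. The part of these cell types in the results on glucose and glycogen genes was not tested.

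In the remaining lists, calls were few. Of lymphatic endothelial markers, 1 of 4 was called higher, Flt4 at 0.40 ± 0.12 (limma adjusted p = 0.0481), with sums of 10214 to 14428 in VEGF-C hearts and 8720 to 11330 in PBS hearts. Of platelet markers, 1 of 4 was called higher, and of Schwann cell markers, 1 of 4 was called lower. None was called by limma among 6 skeletal muscle, 5 T cell, 5 blood endothelial, 4 smooth muscle, 6 erythroid and 4 adipocyte markers with values, nor in the authors' deposited table. At an unadjusted p under 0.05, 2 erythroid markers and 1 blood endothelial marker were higher, 3 adipocyte markers and 1 T cell marker were lower, and 0 skeletal or smooth muscle markers passed.

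Together the 34 genes took 2.27, 2.31, 2.14 and 2.02% of the reads of VEGF-C libraries, against 1.86, 2.01, 1.84 and 1.95% in PBS libraries. The lowest VEGF-C share lay just above the highest PBS share. Many of these genes are abundant, and with the authors' factors abundant genes were called higher in VEGF-C hearts more often than other genes. Among genes with a mean log2 value of 12 to 14, 22.1% were called higher and 3.3% lower, against 6 and 0 of 8 pathway genes. From 14 to 16 the shares were 24.7% higher and 1.12% lower, against 7 and 0 of 12 pathway genes. At 16 and above they were 21.3% and 1.12%, against 2 and 0 of 6 pathway genes. Below 12, 4.41% of all genes were called higher and 9.59% lower, against 1 and 2 of 8 pathway genes.

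**Figure D2:**
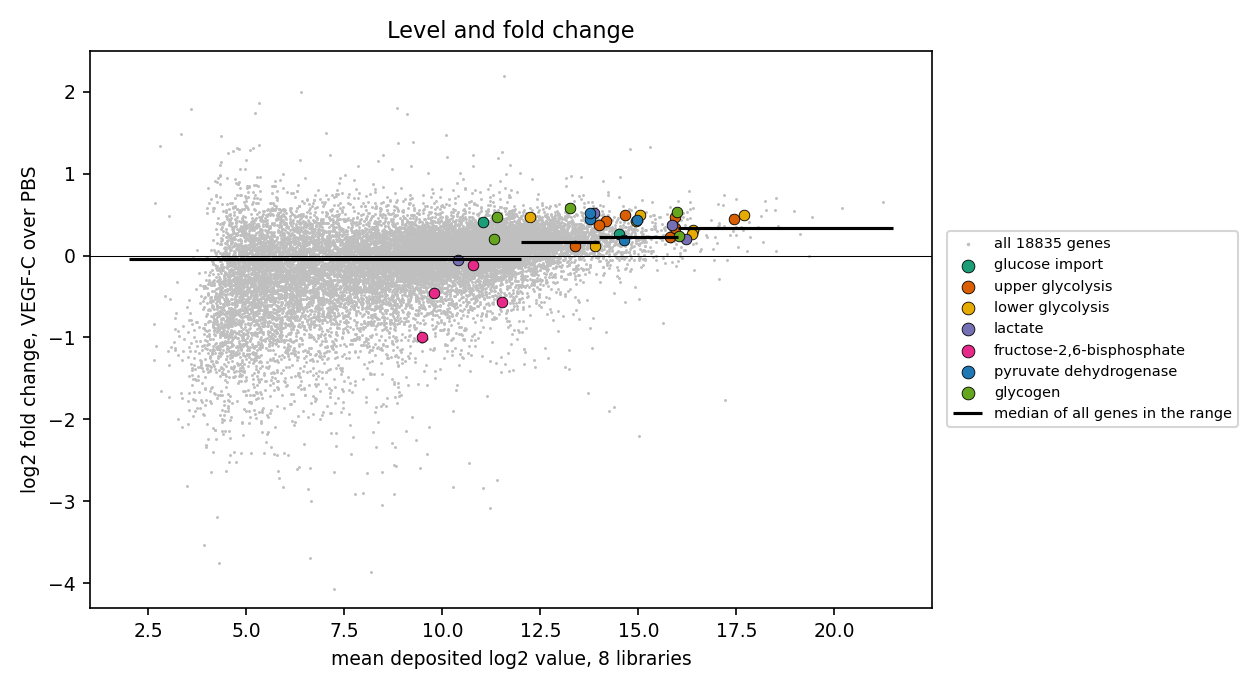
Log2 fold change, VEGF-C over PBS, against the mean deposited log2 value over the 8 libraries, with all genes in grey, the 34 genes coloured by role, and black lines at the median of all genes in 4 ranges of the mean value. The median of all genes is -0.04 below 12 and 0.33 at 16 and above, and the medians of the pathway genes in the 3 ranges from 12 up are 0.46, 0.42 and 0.29.

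The number of calls depended on how the libraries were scaled. With library totals in place of the authors' factors, the median log2 fold change of all genes moved by -0.19. Under that scaling 4 genes were called higher (Slc16a1, Pgam1, Dlat and Gys1) against 1.29% of all genes, and all 4 PFKFB genes were called lower against 19% of all genes. Eno1, Pdhb and Pfkp changed sign. Upper-quartile factors left 11 called higher against 4.23% of all genes, without Pfkl, Aldoa, Tpi1, Gapdh and Ldha, and 2 called lower against 10.2%. TMM factors gave 16 called higher against 6.61% of all genes and 2 called lower against 8.6%. Relative to the median of all genes, the median of the 34 was higher by 0.37 with the authors' factors and also by 0.37 with library totals. A change of scaling factors shifts all genes by nearly the same amount. That difference could therefore hardly change, and it does not test how the results depend on scaling. Leaving out 1 library at a time left 9 to 16 genes called higher, with 10 without VEGF-C replicate 1, 9 without VEGF-C replicate 2, 9 without VEGF-C replicate 3 and 9 without PBS replicate 2. The share of all genes called higher also fell, to 4.14, 4.55, 3.14 and 4.52% in these fits, in that order. The number called lower was 1 without VEGF-C replicate 2, 3 or 4, against 6.83, 5.8 and 6.7% of all genes. Without PBS replicate 1 it was 3, against 8.7% of all genes.

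The libraries of a group did not order the genes in 1 way. VEGF-C replicate 4 was the lowest VEGF-C library for 12 of the 15 genes of glycolysis proper, but the highest for 5 of the 9 pyruvate dehydrogenase and glycogen genes. PBS replicate 3 was the lowest PBS library for all 9 of those, and for 6 of the 15 glycolytic genes.

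**Figure D3:**
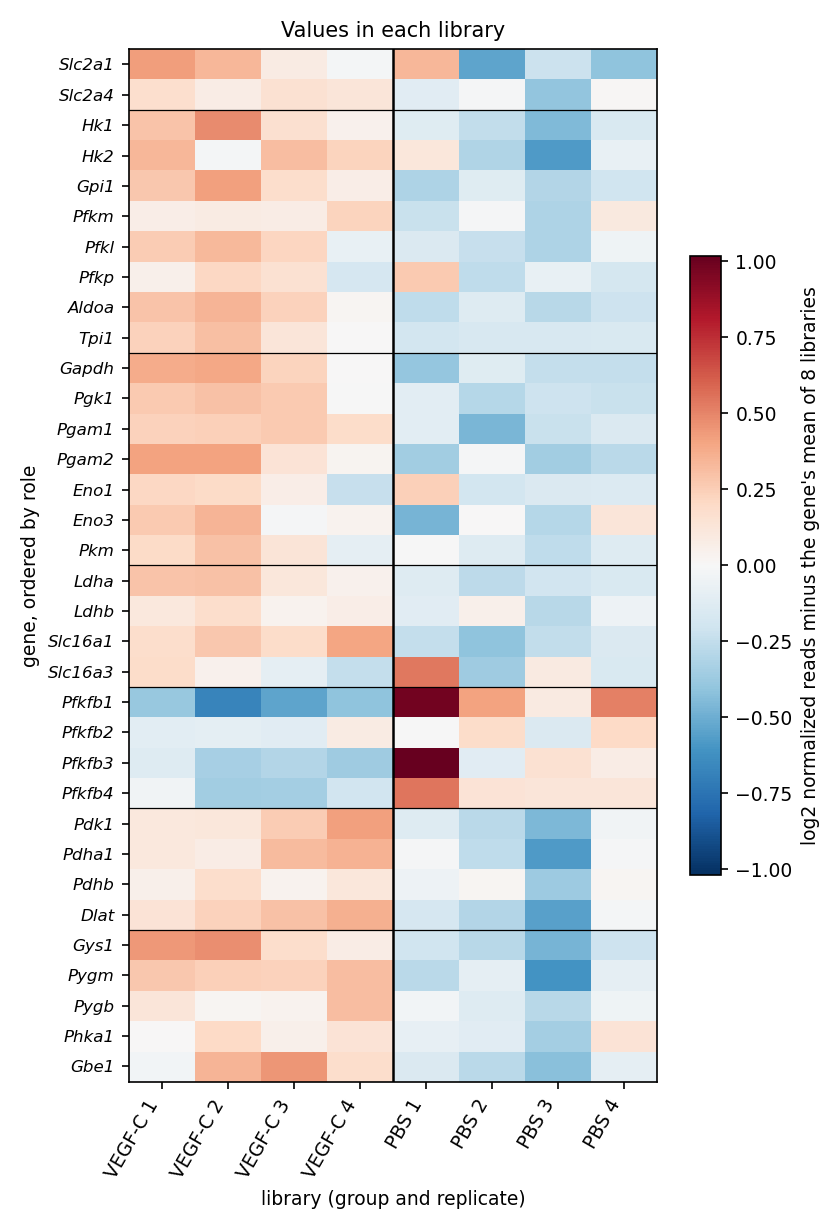
Log2 value of each of the 34 genes in each library, less the mean of the gene over the 8 libraries, with VEGF-C libraries to the left of PBS libraries. VEGF-C libraries are mostly above 0 except in the PFKFB rows, and PBS replicate 1 stands out in the rows of Pfkfb1 and Pfkfb3.

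Genes of glycolysis are known targets of hypoxia-inducible factors, whose binding element has the core letters ACGTG or GCGTG, and promoters of 5 genes are shown because they carry the range of match numbers found, from the called lactate, glycolysis, PFKFB and glycogen genes. Each is a window of 300 bases, 250 before and 50 after the start of the gene, from RefSeq on GRCm38.p6, a different build from the GRCm39 used for the deposited values. Capitals mark ACGTG and GCGTG, read on either strand, where overlapping matches run together as in CACGTG. For Ldha, the window with the most matches of its 2 is shown.
Ldha (chr7:46845554-46845853, plus strand): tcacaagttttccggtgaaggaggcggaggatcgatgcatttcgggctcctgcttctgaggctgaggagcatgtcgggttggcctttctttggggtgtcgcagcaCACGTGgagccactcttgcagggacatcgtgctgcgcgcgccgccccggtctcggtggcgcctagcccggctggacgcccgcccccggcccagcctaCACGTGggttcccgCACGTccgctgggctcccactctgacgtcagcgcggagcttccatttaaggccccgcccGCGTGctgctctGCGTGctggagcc
Pgk1 (chrX:106186850-106187149, plus strand): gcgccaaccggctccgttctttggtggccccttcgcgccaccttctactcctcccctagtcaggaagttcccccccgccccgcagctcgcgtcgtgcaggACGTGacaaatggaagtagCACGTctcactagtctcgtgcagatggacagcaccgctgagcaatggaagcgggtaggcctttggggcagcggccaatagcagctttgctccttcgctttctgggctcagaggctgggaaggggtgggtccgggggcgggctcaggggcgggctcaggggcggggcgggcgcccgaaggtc
Slc16a1 (chr3:104638414-104638713, plus strand): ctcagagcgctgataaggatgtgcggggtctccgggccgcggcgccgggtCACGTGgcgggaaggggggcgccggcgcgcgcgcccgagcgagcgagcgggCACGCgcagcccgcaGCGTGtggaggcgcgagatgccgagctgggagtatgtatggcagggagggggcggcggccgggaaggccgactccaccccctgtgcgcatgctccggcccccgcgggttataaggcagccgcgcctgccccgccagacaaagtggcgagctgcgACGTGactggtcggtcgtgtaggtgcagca
Pfkfb4 (chr9:108991652-108991951, plus strand): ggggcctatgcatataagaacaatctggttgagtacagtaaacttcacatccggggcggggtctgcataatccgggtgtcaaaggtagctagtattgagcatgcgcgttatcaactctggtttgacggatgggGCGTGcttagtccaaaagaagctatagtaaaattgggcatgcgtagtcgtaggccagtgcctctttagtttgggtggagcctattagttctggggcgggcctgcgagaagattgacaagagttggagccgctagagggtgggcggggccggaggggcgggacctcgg
Gys1 (chr7:45434589-45434888, plus strand): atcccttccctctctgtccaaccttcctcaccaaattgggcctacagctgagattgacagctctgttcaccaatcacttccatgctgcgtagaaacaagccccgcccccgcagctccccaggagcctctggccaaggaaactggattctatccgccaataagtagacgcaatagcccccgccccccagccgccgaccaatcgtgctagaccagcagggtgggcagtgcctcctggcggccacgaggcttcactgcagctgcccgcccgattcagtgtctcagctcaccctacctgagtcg
The numbers of matches were 7 for Ldha, 2 for Pgk1, 5 for Slc16a1, 1 for Pfkfb4 and 0 for Gys1. Both overlapping matches of a CACGTG were counted. Of the 33 genes with a window, 27 held at least 1 match in any of their windows (81.8%), against 64% of the 12257 genes with values and a window. A match was found in 10 of the 16 genes called higher, both genes called lower and all 15 that were not called. Counted by window, 36 of 50 windows of these genes held a match (72%), against 43.8% of all 32851 windows. Those windows belong to 27025 genes with or without values here. The 43.8% is therefore not comparable with the 64%, which covers only genes with values. These are matches of letters and say nothing about binding in these hearts.

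Glucose enters the heart cell through Slc2a4 (GLUT4), the insulin-responsive carrier of muscle and fat, and Slc2a1 (GLUT1), the carrier found in most cell types. Neither was called by limma. At an unadjusted p under 0.05, both were higher, and the authors' deposited table called neither. Slc2a4 had 26088, 24433, 25802 and 25287 normalized reads in VEGF-C hearts, against 21450, 22967, 17519 and 23464 in PBS hearts. All VEGF-C hearts lay above all PBS hearts, at a log2 fold change of 0.26 ± 0.10 (SE, limma adjusted p = 0.0973). Slc2a1 had 2791, 2625, 2204 and 2049 normalized reads in VEGF-C hearts, against 2633, 1435, 1787 and 1564 in PBS hearts. The groups overlapped through PBS replicate 1 alone, at a log2 fold change of 0.41 ± 0.18 (SE, limma adjusted p = 0.140). Without PBS replicate 1, the log2 fold change of Slc2a1 was 0.59 and its limma adjusted p was 0.0130. Without any other 1 library, its limma adjusted p was 0.134 to 0.294. Per kilobase of exon, Slc2a4 was the more abundant carrier, with means of 7304 normalized reads per kb in VEGF-C hearts and 6139 in PBS hearts, against 689 and 529 for Slc2a1.

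In upper glycolysis, which turns glucose into triose phosphates, 5 of 8 genes were called higher, against 7.05% of all genes, and none lower. All 8 lie in the ranges of mean log2 value from 12 up, where 21.3 to 24.7% of all genes were called higher. No gene of the group was lower at an unadjusted p under 0.05 or in the authors' deposited table. Hk1, the hexokinase that traps glucose as glucose 6-phosphate in most tissues, had 31504, 36018, 28800 and 26598 normalized reads in VEGF-C hearts, against 23620, 21611, 18900 and 23117 in PBS hearts. Gpi1, which converts glucose 6-phosphate to fructose 6-phosphate, had 75771, 83451, 70991 and 65732 normalized reads in VEGF-C hearts, against 50328, 57440, 50916 and 54522 in PBS hearts. The groups did not overlap for either gene. The log2 fold change was 0.49 ± 0.11 for Hk1 (SE, limma adjusted p = 0.0167) and 0.47 ± 0.10 for Gpi1 (SE, limma adjusted p = 0.0145), and both remained called without any 1 library. Hk2, the insulin-regulated hexokinase of muscle, stood at 0.42 ± 0.14 (SE, limma adjusted p = 0.0701). Hk2 had a limma adjusted p of 0.0232 without PBS replicate 1, and one of 0.0593 to 0.158 without any other 1 library. In the authors' deposited table, the adjusted p of Hk2 was 0.0292.

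Phosphofructokinase, which commits sugar to glycolysis, is made from 3 genes, of which 1 was called. The liver-type subunit Pfkl had 19451, 20366, 18878 and 15434 normalized reads in VEGF-C hearts, against 14618, 13803, 13056 and 15772 in PBS hearts. VEGF-C replicate 4 lay inside the PBS range, and the log2 fold change was 0.37 ± 0.10 (SE, limma adjusted p = 0.0341). The muscle-type subunit Pfkm, the most abundant per kilobase, had a log2 fold change of 0.23 ± 0.11 (SE, limma adjusted p = 0.184), and the platelet-type subunit Pfkp one of 0.12 ± 0.12 (limma adjusted p = 0.536). Aldoa, the aldolase of muscle and most tissues, had 218197, 227611, 209706 and 180574 normalized reads in VEGF-C hearts, against 148922, 163419, 146789 and 153926 in PBS hearts. Tpi1, which interconverts the triose phosphates, had 73372, 77008, 67768 and 62256 normalized reads in VEGF-C hearts, against 54524, 55694, 55571 and 55961 in PBS hearts. In both genes every VEGF-C heart lay above every PBS heart. The log2 fold changes were 0.44 ± 0.12 for Aldoa (SE, limma adjusted p = 0.0374) and 0.33 ± 0.09 for Tpi1 (SE, limma adjusted p = 0.0381). Aldoa and Tpi1 lost their calls without any 1 of VEGF-C replicates 1 to 3 or PBS replicates 1 to 4, with adjusted p-values of up to 0.0937 and 0.0952. Pfkl lost its call without any 1 of VEGF-C replicates 1 to 3 or PBS replicates 2 and 3, with an adjusted p of up to 0.0863.

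In lower glycolysis, which gains ATP and ends in pyruvate, 4 of 7 genes were called higher, against 7.05% of all genes, and none lower. The mean log2 values of all 7 lie in the ranges from 12 up, where 21.3 to 24.7% of all genes were called higher. Again none of the 7 was lower at an unadjusted p under 0.05 or in the authors' deposited table. Pgam1, the phosphoglycerate mutase of most tissues, had 5708, 5731, 5840 and 5526 normalized reads in VEGF-C hearts, against 4502, 3508, 4148 and 4376 in PBS hearts. Its VEGF-C libraries lay close together and above all PBS libraries, at a log2 fold change of 0.47 ± 0.08 (SE, limma adjusted p = 0.00618). Pgk1, the first ATP-making enzyme of the pathway, had 38093, 38936, 38092 and 31550 normalized reads in VEGF-C hearts, against 29326, 25852, 27364 and 27081 in PBS hearts. VEGF-C replicate 4 stood below the other VEGF-C libraries but above all PBS libraries, and the log2 fold change was 0.42 ± 0.09 (SE, limma adjusted p = 0.0146). Pgam2, the muscle form of the mutase, had 44725, 44662, 37091 and 34230 normalized reads in VEGF-C hearts, against 26249, 33344, 26300 and 27828 in PBS hearts. No PBS heart reached the lowest VEGF-C heart, at a log2 fold change of 0.50 ± 0.12 (SE, limma adjusted p = 0.0205). Gapdh, which oxidizes glyceraldehyde 3-phosphate and is often used as a reference gene in expression assays, had 277519, 280679, 249611 and 214251 normalized reads in VEGF-C hearts, against 162680, 195548, 180941 and 180491 in PBS hearts. All VEGF-C hearts lay above all PBS hearts, and the log2 fold change was 0.50 ± 0.14 (SE, limma adjusted p = 0.0374).

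Pgam1 and Pgk1 remained called without any 1 library. Pgam2 lost its call without VEGF-C replicate 1 or 2, with an adjusted p of up to 0.0585. Gapdh lost its call without any 1 library other than VEGF-C replicate 4, with an adjusted p of up to 0.0972. The enolases and pyruvate kinase were not called. Eno3, the muscle enolase, had a log2 fold change of 0.32 ± 0.15 (SE, limma adjusted p = 0.173). Eno1, the enolase of most tissues, had one of 0.12 ± 0.13 (limma adjusted p = 0.545), and Pkm, the pyruvate kinase of muscle and other tissues, one of 0.26 ± 0.11 (limma adjusted p = 0.138). In the authors' deposited table, Pkm was called higher at an adjusted p of 0.0452. Reads of Gapdh, Aldoa, Pgk1, Eno1 and other genes of glycolysis can also match near-identical copies elsewhere in the genome, and how such reads were counted is not given in the sources here, so their levels are uncertain to that extent.

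Of the 4 lactate genes, 2 were called higher, against 7.05% of all genes. Ldha, Ldhb and Slc16a1 lie in the ranges of mean log2 value from 12 up, where 21.3 to 24.7% of all genes were called higher. Slc16a3 lies below 12, where 4.41% were. Slc16a1 (MCT1), which carries lactate and pyruvate across the cell membrane in both directions, had 16758, 17886, 16855 and 19585 normalized reads in VEGF-C hearts, against 12543, 11169, 12482 and 13386 in PBS hearts. Every VEGF-C heart was above every PBS heart by a wide margin, at a log2 fold change of 0.52 ± 0.08 or 1.43-fold (SE on the log2 scale, limma adjusted p = 0.00372). This was the smallest adjusted p of the 34 genes, and the call held under every scaling tried and without any 1 library. Ldha, the subunit of lactate dehydrogenase that prevails in skeletal muscle, had 73193, 73560, 64802 and 61481 normalized reads in VEGF-C hearts, against 54587, 49639, 52064 and 53708 in PBS hearts. The groups did not overlap, and the log2 fold change was 0.38 ± 0.09 (SE, limma adjusted p = 0.0259). Ldha lost its call without any 1 of VEGF-C replicates 1 to 3 or PBS replicate 2, with an adjusted p of up to 0.0705. Ldhb, the subunit that prevails in the heart, had a log2 fold change of 0.20 ± 0.10 (SE, limma adjusted p = 0.203), and Slc16a3 (MCT4), the lactate exporter of glycolytic cells, one of -0.05 ± 0.18 (limma adjusted p = 0.862). Per kilobase of exon, Ldhb was above Ldha in both groups, with means of 52178 normalized reads per kb in VEGF-C hearts and 45568 in PBS hearts, against 20622 and 15861 for Ldha.

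The PFKFB genes ran against the others. Of the 4, 2 were called lower and none higher by limma, against 8.61% and 7.05% of all genes. At an unadjusted p under 0.05, and also in the authors' deposited table, 3 were lower and none higher. Pfkfb1, known from liver and muscle, had 543, 446, 490 and 534 normalized reads in VEGF-C hearts, against 1403, 942, 757 and 1016 in PBS hearts. All VEGF-C hearts lay below all PBS hearts, at a log2 fold change of -0.996 ± 0.17 or 0.501 of the PBS level (SE on the log2 scale, limma adjusted p = 0.00467). Pfkfb4, known from testis and from hypoxic and tumour cells, had 860, 690, 696 and 772 normalized reads in VEGF-C hearts, against 1284, 972, 962 and 960 in PBS hearts. The groups did not overlap, and the log2 fold change was -0.46 ± 0.12 (SE, limma adjusted p = 0.0290). The call of Pfkfb4 was lost without VEGF-C replicate 2, 3 or 4, with an adjusted p of up to 0.0792. Pfkfb3, the inducible form found in endothelial and immune cells among others, had 2703, 2341, 2399 and 2301 normalized reads in VEGF-C hearts, against 5993, 2725, 3288 and 3120 in PBS hearts. All VEGF-C hearts again lay below all PBS hearts, but PBS replicate 1 was far above the other PBS hearts, and the log2 fold change of -0.56 ± 0.20 was not called (SE, limma adjusted p = 0.0861). Pfkfb3 was called lower in the authors' deposited table, at a log2 fold change of -0.63 and an adjusted p of 0.0148. It was also called lower by limma with library totals, at -0.76 and an adjusted p of 0.0251, and without PBS replicate 1, at -0.32 and an adjusted p of 0.0431. Without any other 1 library, the limma adjusted p of Pfkfb3 was 0.0546 to 0.165. Pfkfb2, the heart form, overlapped between the groups at -0.12 ± 0.09 (limma adjusted p = 0.411).

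All 4 PFKFB genes were at low levels beside the enzymes of glycolysis. Per kilobase of exon they averaged 125 (Pfkfb1), 233 (Pfkfb2), 155 (Pfkfb4) and 322 (Pfkfb3) normalized reads in VEGF-C hearts, against 256, 255, 214 and 500.1 in PBS hearts. In the GENCODE M21 annotation, Pfkfb1 shares 123 exon bases with the opposite-strand gene Apex2, and whether strand was used in counting is not stated in the sources here.

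**Figure D4:**
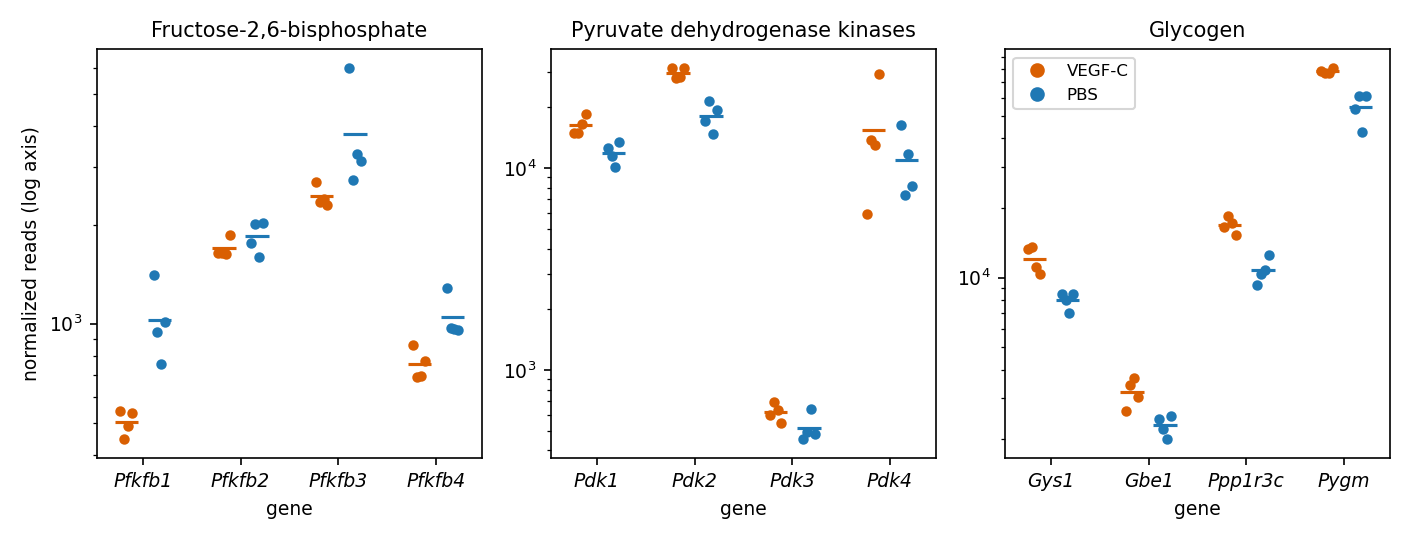
Normalized reads on a log axis in each library for the 4 PFKFB genes, the 4 pyruvate dehydrogenase kinase genes and 4 glycogen genes, with VEGF-C to the left of PBS and bars at group means. Pfkfb1, Pfkfb3 and Pfkfb4 are lower in all VEGF-C hearts, Pdk1 and Pdk2 are higher in all VEGF-C hearts, and Pdk4 spans 5943 to 29348 within the VEGF-C group.

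At the entry of pyruvate into the mitochondria, 2 of 4 genes were called higher, against 7.05% of all genes. In all 4 every VEGF-C heart lay above every PBS heart, which held for 11.5% of all genes. Among all genes with a mean log2 value of 12 to 14 and of 14 to 16, where these 4 lie, 22.1 and 24.7% were called higher. Dlat, the acetyltransferase core of the pyruvate dehydrogenase complex, had 15364, 16434, 17211 and 17940 normalized reads in VEGF-C hearts, against 12397, 11362, 9519 and 13763 in PBS hearts. The log2 fold change was 0.52 ± 0.11 (SE, limma adjusted p = 0.0131), and the call held without any 1 library. Pdk1, a kinase that switches the complex off, had 14930, 15017, 16655 and 18587 normalized reads in VEGF-C hearts, against 12667, 11502, 10103 and 13529 in PBS hearts. The groups did not overlap, at a log2 fold change of 0.45 ± 0.11 (SE, limma adjusted p = 0.0207). Pdk1 lost its call without VEGF-C replicate 3, VEGF-C replicate 4 or PBS replicate 2, with an adjusted p of up to 0.0578. The catalytic subunits Pdha1 and Pdhb had log2 fold changes of 0.43 ± 0.13 (limma adjusted p = 0.0550) and 0.19 ± 0.10 (limma adjusted p = 0.215). Pdha1 had a limma adjusted p of 0.0349 without PBS replicate 1, and one of 0.0517 to 0.133 without any other 1 library. In the authors' deposited table, the adjusted p of Pdha1 was 0.0145.

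Against 7.05% of all genes, 3 of the 5 glycogen genes were called higher, among them both the enzyme that builds glycogen and the one that breaks it down. Gys1, Pygm and Pygb lie in the ranges of mean log2 value from 12 up, where 21.3 to 24.7% of all genes were called higher. Gbe1 and Phka1 lie below 12, where 4.41% were. Gys1, the muscle glycogen synthase, had 13257, 13614, 11061 and 10326 normalized reads in VEGF-C hearts, against 8495, 8019, 7035 and 8467 in PBS hearts. The groups were well apart, at a log2 fold change of 0.59 ± 0.11 or 1.5-fold (SE on the log2 scale, limma adjusted p = 0.00641), the largest positive value of the 34 genes with the authors' factors. Pygm, the muscle glycogen phosphorylase, had 78349, 76550, 76297 and 80667 normalized reads in VEGF-C hearts, against 53720, 60848, 42525 and 60918 in PBS hearts. VEGF-C hearts lay within a narrow range above all PBS hearts, of which PBS replicate 3 was the lowest, and the log2 fold change was 0.53 ± 0.12 (SE, limma adjusted p = 0.0183). Gbe1, the branching enzyme, had 2636, 3424, 3680 and 3045 normalized reads in VEGF-C hearts, against 2437, 2220, 1998 and 2520 in PBS hearts. Each VEGF-C heart was above each PBS heart, at a log2 fold change of 0.47 ± 0.11 (SE, limma adjusted p = 0.0218). Gys1 and Pygm remained called without any 1 library, and Gbe1 lost its call without VEGF-C replicate 2 or 3 or PBS replicate 2 or 3, with an adjusted p of up to 0.0620. The brain-type phosphorylase Pygb and the phosphorylase kinase subunit Phka1 had log2 fold changes of 0.24 ± 0.11 (limma adjusted p = 0.140) and 0.20 ± 0.10 (limma adjusted p = 0.202).

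Ratios of genes from the same library do not depend on how libraries are scaled, and 12 such ratios were compared, mostly between forms of the same enzyme. None differed between the groups without overlap, and none passed an exact two-sided permutation test, which enumerates 70 assignments of the libraries and can reach a p of 0.0286 at best. After adjustment over the 12 ratios, 1 ratio alone at that p could not fall under 0.05. The test therefore cannot show that the ratios were unchanged. The lowest p, 0.0571 (0.343 adjusted over the 12 ratios), was shared by 2 ratios. The log2 ratio of Slc16a3 to Slc16a1 averaged -3.73 ± 0.27 in VEGF-C hearts and -3.16 ± 0.36 in PBS hearts (SD, n = 4 each), a difference of -0.57. The log2 ratio of Pygb to Pygm averaged -0.10 ± 0.10 in VEGF-C hearts and 0.19 ± 0.17 in PBS hearts (SD, n = 4 each), a difference of -0.29. For Ldha to Ldhb the difference was 0.18, with an exact permutation p of 0.143.

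**Figure D5:**
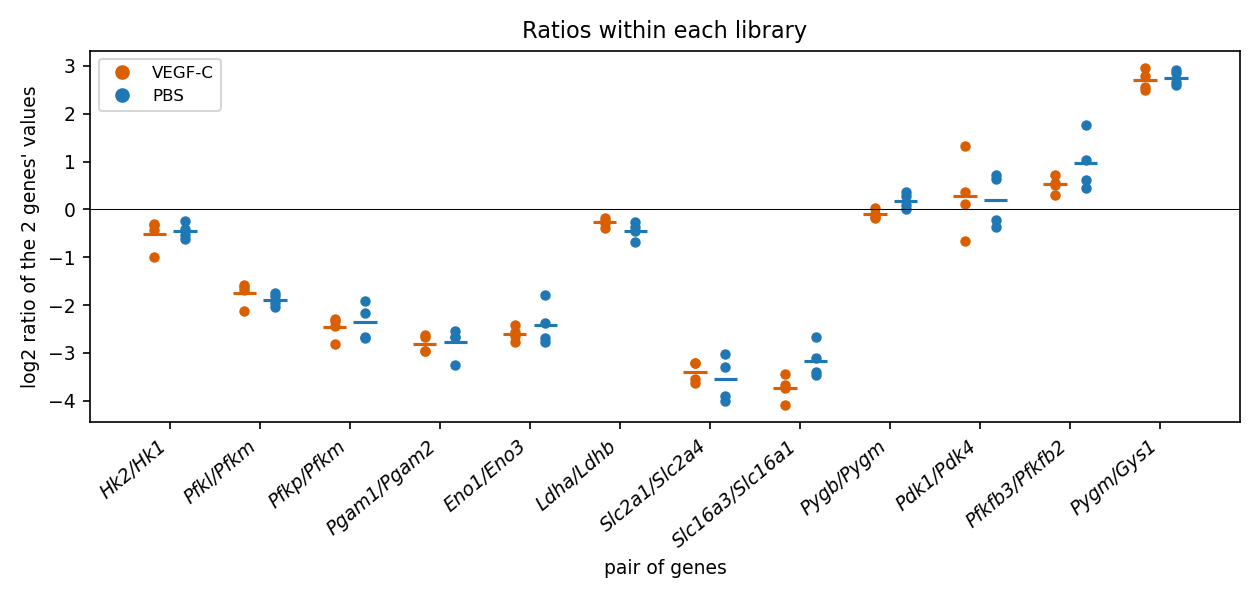
Log2 ratio of normalized reads of gene pairs in each library, with VEGF-C to the left of PBS and bars at group means. The groups overlap in each of the 12 pairs, and the shifts of Slc16a3/Slc16a1 by -0.57 and of Pygb/Pygm by -0.29 had the lowest exact permutation p, 0.0571.

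A further list of 64 genes of the same pathways, 60 of which had values, was described beside the 34. Of these 60 genes, 18 were called higher and 3 lower, against 7.05% and 8.61% of all genes, with a median log2 fold change of 0.20. The share of all genes called higher was 4.41% at a mean log2 value below 12 and 21.3 to 24.7% in the ranges from 12 up. Glycogen genes made up the larger share, with 10 of 20 called higher and none lower, while 2 were lower at an unadjusted p under 0.05 and 1 was called lower in the authors' deposited table. Ppp1r3c, which brings protein phosphatase 1 to glycogen, had 16567, 18455, 17133 and 15314 normalized reads in VEGF-C hearts, against 9306, 10357, 10830 and 12468 in PBS hearts. All VEGF-C hearts were above all PBS hearts, at a log2 fold change of 0.66 ± 0.10 (SE, limma adjusted p = 0.00284). Pgm1 and Ugp2, which make UDP-glucose from glucose 6-phosphate, had log2 fold changes of 0.35 ± 0.07 (limma adjusted p = 0.00780) and 0.36 ± 0.08 (limma adjusted p = 0.0160). Gsk3a, a kinase that inhibits glycogen synthase, stood at 0.32 ± 0.07 (limma adjusted p = 0.0156), and Gaa, the lysosomal glucosidase, at 0.41 ± 0.10 (limma adjusted p = 0.0187). Without VEGF-C replicate 3, Ugp2 and Gaa had limma adjusted p-values of 0.0526 and 0.0587. In that fit 7 of the 60 genes were called higher, against 3.14% of all genes. The number called higher was 10 without VEGF-C replicate 4, without PBS replicate 2 and without PBS replicate 3. The shares of all genes called higher there were 4.46, 4.52 and 4.34%.

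Among the 10 other genes of pyruvate entry, 4 were called higher, against 7.05% of all genes, and none lower. None was lower at an unadjusted p under 0.05 or in the authors' deposited table. Pdk2, another kinase that switches pyruvate dehydrogenase off, had 31444, 28151, 28186 and 31305 normalized reads in VEGF-C hearts, against 17168, 21607, 14754 and 19473 in PBS hearts. The groups were far apart, at a log2 fold change of 0.72 ± 0.12 or 1.65-fold (SE on the log2 scale, limma adjusted p = 0.00392). Per kilobase of exon, Pdk2 exceeded Pdk1, with 9412 normalized reads per kb in VEGF-C hearts and 5770 in PBS hearts, against 2095 and 1536 for Pdk1. Pdk4, the kinase induced by fasting and fatty acids, had 5943, 13853, 13000 and 29348 normalized reads in VEGF-C hearts, against 16425, 7353, 11796 and 8197 in PBS hearts. VEGF-C hearts spanned the whole PBS range, and the log2 fold change was 0.36 ± 0.42 (SE, limma adjusted p = 0.592). Mpc1, a subunit of the mitochondrial pyruvate carrier, stood at 0.38 ± 0.07 (limma adjusted p = 0.00756). The other 2 called genes, named after their values were seen, were Dld at 0.40 ± 0.11 (limma adjusted p = 0.0372) and Pdpr at 0.51 ± 0.16 (limma adjusted p = 0.0498).

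Of 9 other isoenzymes, 3 were called lower, against 8.61% of all genes. Hk3, a hexokinase of myeloid cells, had 414, 352, 379 and 403 normalized reads in VEGF-C hearts, against 1018, 609, 892 and 720 in PBS hearts. VEGF-C hearts were all lower, at a log2 fold change of -1.03 ± 0.15 (SE, limma adjusted p = 0.00273). The neutrophil markers Mmp9 and Csf3r were called lower, at -0.91 ± 0.20 (limma adjusted p = 0.0149) and -0.77 ± 0.21 (limma adjusted p = 0.0316). The other 3 of the 5 neutrophil markers were not called. All 5 had a negative log2 fold change, with a median of -0.72. None of the 7 macrophage markers was called, with 2 positive and 5 negative log2 fold changes. The part of myeloid cells in the level of Hk3 was not tested. Ldhd, the D-lactate dehydrogenase, was lower at -0.73 ± 0.17 (limma adjusted p = 0.0171), and its exons share 2246 bases with the opposite-strand gene Znrf1. Eno2, the enolase of neurons, named after its values were seen, was lower at -0.49 ± 0.12 (limma adjusted p = 0.0214). Among 7 other carriers and partners, Bsg alone was called, at 0.32 ± 0.09 (limma adjusted p = 0.0433). Bsg, the partner protein of the monocarboxylate carriers, was also named after its values were seen. Slc2a3 (GLUT3) stood at -0.26 ± 0.14 (limma adjusted p = 0.224). None of 7 pentose phosphate genes was called by limma. At an unadjusted p under 0.05 none was higher and 1 was lower, and that number was also 0 and 1 in the authors' deposited table. Against 7.05% of all genes called higher, 2 of 7 regulators were called, both higher. They were Tigar, which breaks down fructose 2,6-bisphosphate, at 0.48 ± 0.08 (limma adjusted p = 0.00450), and Prkaa2, a catalytic subunit of the energy sensor AMPK, at 0.47 ± 0.13 (limma adjusted p = 0.0349), the second named after its values were seen.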

How the data were processed

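Heart RNA with a RIN above 8.0 was used for TruSeq stranded libraries and NovaSeq sequencing, per the labels' protocols. Per the submitters' processing notes, DESeq2 1.38.3, Subread 2.0.1, featureCounts, STAR 2.7.10a, Trim Galore 0.6.10 and the build GRCm39 were used. Settings, annotation and strand use are not given in the sources here. The deposited values are log2 values, and they read back as log2(normalized reads + 4), with 1 scaling factor for each library. Whole reads came back for 100% of values within 0.01 reads, and the factors equalled median-of-ratios factors. The table lists 56941 genes, of which 38106 have no values. A second row of Aldoa has none either. The authors' deposited log2 fold changes and adjusted p-values are used only where named. For 23 genes the table gives no adjusted p-value.

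Groups follow the treatment label. limma 3.58.1 (R 4.3.3) was fitted to the deposited log2 values of all 18835 genes, with treatment as the only factor, 6 residual degrees of freedom and a mean-variance trend. The fit was tested on simulated data. As nothing says more of how the columns relate to animals, p-values measure the spread between these libraries. Log2 fold changes understate the change of genes with few reads. Alternatives were TMM, upper-quartile and library-total scaling, pseudocounts of 1 and 16 normalized reads, a filter at a mean of 10 normalized reads, robust variances, no trend, limma-voom on the recovered reads, and leaving out each library. Levels per kb use merged exon lengths of the GENCODE M21 annotation, which is of another build than the files. By it, exons of 11 of the 34 genes share bases with another gene with values, on the opposite strand in 10. Of the list of 64 further genes, 1 was matched by a synonym. Promoters are from RefSeq, and 1 gene of the 34, Slc2a4, had no entry. The members, the further lists and the naming rule were chosen with earlier results of these data known. The rule gives every called gene of the 34 and the one with the smallest p in each role by library, the others by fold change. From the further list it takes the 10 smallest p-values among called genes and Pdk4, Pdk2, Slc2a3, Pklr and Gaa by name, where Pklr had no value. A gene that met the rule is not reported here. From each cell type list it takes up to 2 called genes.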

Additional observations from a re-analysis of the deposited data

Results flagged for a closer look

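In 5 of 94 groups of 4 libraries, 1 library stood apart from the other 3, by Dixon's test. Chance flags about 1 in 20 such groups. In the VEGF-C group replicate 4 was the outlying library each time. Pfkm had 67054 normalized reads there, against 60211 to 60826 in the other VEGF-C hearts. Pgk1 had 31550 there, against 38092 to 38936. Pfkfb2 had 1863 there, against 1626 to 1645. In the PBS group replicate 1 was the outlying library each time, and both genes were highest there. Eno1 had 18014 normalized reads in it, against 13356 to 13823 in the other PBS hearts. Pfkfb4 had 1284 in it, against 960 to 972.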

How the results depend on the processing

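Of the 34 genes, 16 called higher and 2 called lower stayed 16 and 2 under TMM factors, both pseudocounts, the filter on low values and limma-voom. The shares of all genes called in these settings were 6.61 to 7.1% higher and 8.02 to 8.7% lower. Upper-quartile factors gave 11 and 2, against 4.23% and 10.2% of all genes. Robust variances gave 17 and 2, against 7.22% and 8.64%. With library totals, which moved the median of all genes by -0.19, both numbers were 4, against 1.29% and 19% of all genes. Without the mean-variance trend 15 were called higher and 1 lower, against 4.23% and 8.08% of all genes, and the cause was not tested. Leaving out 1 library at a time gave 9 to 16 called higher and 1 to 3 called lower, with 1684 (without VEGF-C replicate 3) to 2906 (without PBS replicate 1) genes called over all genes, and 1956 without VEGF-C replicate 1. Of the 60 further pathway genes, library totals left 4 called higher and 9 called lower, against 1.29% and 19% of all genes. Leaving out 1 library gave 7 to 16 of the 60 called higher, against 3.14 to 6.73% of all genes. It gave 2 to 4 called lower, against 5.8 to 8.7% of all genes. Of the 12 ratios, 2 did not overlap between the groups without VEGF-C replicate 4, 1 did not without VEGF-C replicate 1, PBS replicate 2 or PBS replicate 4, and 0 without any other library. Leaving out 1 library moved the log2 fold change of Pdk4 between -0.023, without VEGF-C replicate 4, and 0.74, without VEGF-C replicate 1, and the cause was not tested. No paired analysis was possible because no animal number occurs in both groups and the column numbers tie to no animal. With 4 libraries a group, the spread between replicates limits what can be called, and for Pdk4 the standard error of the log2 fold change (0.42) exceeded its value (0.36).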

Other observations

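The following values were chosen after they were seen. Bpgm, the mutase that makes 2,3-bisphosphoglycerate in red blood cells, had 2112, 4211, 2333 and 1877 normalized reads in VEGF-C hearts, against 1707, 1520, 1403 and 2093 in PBS hearts. It was not called by limma (log2 fold change 0.59 ± 0.23, SE, limma adjusted p = 0.104). The erythroid markers summed to 152232, 483354, 176616 and 121838 normalized reads in VEGF-C hearts, against 85660, 106891, 65618 and 190218 in PBS hearts. VEGF-C replicate 2 was highest and VEGF-C replicate 4 lowest within the VEGF-C group in both measures, and in the PBS group replicate 4 was highest and replicate 3 lowest in both. The part of red blood cells in the level of Bpgm was not tested.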
